A study of Mus musculus with 6 samples.

Results

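The genes described here are 44 imprinted genes of the mouse that lie outside the Dlk1-Meg3 locus. They were taken from a list of gene symbols, with no threshold on measured values. The list was chosen with earlier results of these data known. All 44 genes were found among the 55401 genes of the count table. They fall into 20 clusters or single loci. By textbook knowledge 18 are usually expressed from the maternal copy and 24 from the paternal copy. Grb10 and Gnas use a different copy in different tissues or promoters. Other genes of the list may also be imprinted in only some tissues. Whether these assignments hold in the cells sequenced here was not examined.

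RNA was sequenced from V6.5, a mouse embryonic stem cell line derived from hybrid embryos. One group was wild type (WT) and the other carried the genotype Cdh1-/-, the loss of both copies of the gene for the adhesion protein E-cadherin. Each group had 3 libraries, named A, B and C, and no treatment is given for either group. The labels do not say whether the libraries of a group are separate cultures or whether the knockout is a single clone, so p-values measure only the spread between these libraries, which may be technical.

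Genomic imprinting is the silencing of a gene on the chromosome inherited from either the mother or the father. It rests on control regions whose DNA methylation is set in the germ line and kept through the divisions of the embryo, often for a whole cluster of genes. Imprinted genes are known for their roles in growth, placenta and metabolism, and cultured embryonic stem cells are known to lose or shift imprints. The counts used here do not separate the parental copies. A change in level is therefore a change in the sum of both copies, and it cannot be told apart here from a change in the number of cells that express the gene.

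The libraries held 18020719 to 23381942 counts. Cdh1 itself was at 569, 571 and 537 CPM (counts per 1000000 scaled counts of a library) in WT libraries A, B and C, and at 169, 183 and 166 CPM in Cdh1-/- cells libraries, 30.9% of the WT mean. Its log2 fold change was -1.70 (SE 0.08, adjusted p = 2.9e-08), in the direction of the label. Here and below the test is edgeR's quasi-likelihood test, with p-values adjusted by Benjamini-Hochberg over all tested genes, and fold changes are knockout over WT. A level under 6 counts, equal to 0.262 to 0.332 CPM in a library, was treated as not distinguished from 0. Genes on chromosome 1 had medians 0.283 to 0.324 log2 units lower and genes on chromosome 14 0.531 to 0.549 higher in the knockout libraries than in WT. Of the 44 imprinted genes 1, Zdbf2, lies on chromosome 1 and 0 lie on chromosome 14, while 20 lie on chromosome 7.

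Promoter sequences are shown for 3 of the genes described below, Peg3, Nnat and Grb10. They are RefSeq windows of the build GRCm38.p6, from 250 bases before to 50 bases after a gene start. Each is written 5′ to 3′ on the strand of the gene. H19, Cdkn1c, Peg10 and Impact, also described below, have no entry among the RefSeq windows used. The 3 windows shown therefore do not represent all genes that changed. Peg3 is shown because its window (chr7:6730370-6730669, minus strand) shares 263 bases with that of Usp29 on the other strand, the starts of the genes being 162 bases apart. Capitals mark the 13 CpG sites, at which imprinted promoters carry methylation.
Peg3: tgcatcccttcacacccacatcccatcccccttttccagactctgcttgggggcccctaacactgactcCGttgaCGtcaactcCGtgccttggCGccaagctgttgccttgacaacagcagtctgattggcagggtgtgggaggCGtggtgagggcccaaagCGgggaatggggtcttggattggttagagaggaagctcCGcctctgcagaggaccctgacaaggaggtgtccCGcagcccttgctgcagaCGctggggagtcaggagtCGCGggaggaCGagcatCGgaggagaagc
Nnat (chr2:157559828-157560127, plus strand) and Grb10 (chr11:12037371-12037670, minus strand) are shown because their windows hold the hexamer TGCCGC, which the zinc-finger protein ZFP57 recognises when methylated. It stands in capitals as its reverse complement GCGGCA.
Nnat: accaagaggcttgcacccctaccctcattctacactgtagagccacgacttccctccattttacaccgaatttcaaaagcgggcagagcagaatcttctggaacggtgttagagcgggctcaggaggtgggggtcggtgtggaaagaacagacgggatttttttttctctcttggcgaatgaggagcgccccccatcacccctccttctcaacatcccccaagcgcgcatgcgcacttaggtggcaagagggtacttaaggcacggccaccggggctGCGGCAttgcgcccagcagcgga
Grb10: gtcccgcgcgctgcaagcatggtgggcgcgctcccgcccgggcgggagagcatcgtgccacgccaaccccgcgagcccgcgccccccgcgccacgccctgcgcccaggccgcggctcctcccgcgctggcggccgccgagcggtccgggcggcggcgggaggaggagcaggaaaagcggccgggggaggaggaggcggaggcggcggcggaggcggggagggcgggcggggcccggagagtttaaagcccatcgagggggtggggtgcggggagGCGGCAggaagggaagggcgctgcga
The Nnat window holds 17 CpG sites and the Grb10 window 45. The hexamer, searched on both strands, was present in 12 of 52 windows of the 35 imprinted genes with an entry in the RefSeq table (23.1%) and in 3813 of all 32851 windows (11.6%). Some windows of a gene overlap, so these are not independent. The hexamer stood in at least 1 window of 11 of the imprinted genes, Mest among them. A second Grb10 window lacked it. The median number of CpG sites in a window was 16 for the imprinted genes and 7 for all windows. These matches describe letters, not binding.

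Of the 44 genes, 41 were tested after the filter on low counts, and 12 passed at an adjusted p under 0.05. H19, Usp29, Nnat, Peg3, Impact, Mest and Snrpn were lower in the knockout, and Cdkn1c, Grb10, Cd81, Peg10 and Zrsr1 were higher. The 12 genes are 29.3% of those tested, against 13.3% of all 17325 tested genes. Because the list was chosen with earlier results known, these shares only describe it. By direction, 7 of 41 were lower and 5 of 41 higher, beside 5.71% lower and 7.6% higher over all genes. The median log2 fold change was -0.11 for the imprinted genes and -0.01 for all genes. In 15 of the 41 genes (36.6%) every knockout library lay beyond every WT library, against 30.7% of all genes. These 15 were the 12 above and Ndn, Peg12 and Inpp5f, which were lower without passing the test. The genes H19, Usp29, Nnat and Peg3 were more than 2-fold lower, and 0 were more than 2-fold higher. The 7 genes that passed in each of the 6 fits that left out a library were H19, Nnat, Peg3, Impact, Cd81, Grb10 and Cdkn1c. Without WT A, and likewise without WT B, 7 imprinted genes passed in all.

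Grouped by the copy that is usually expressed, 6 of the 23 tested paternal genes fell and 2 rose, with a median log2 fold change of -0.26. Of the 16 tested maternal genes 1 fell and 2 rose, with a median of -0.002. Over all genes 5.71% were lower and 7.6% higher, with a median of -0.01. The difference between these groups was not tested, and the copy in use was not measured in these cells.

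**Figure D1:**
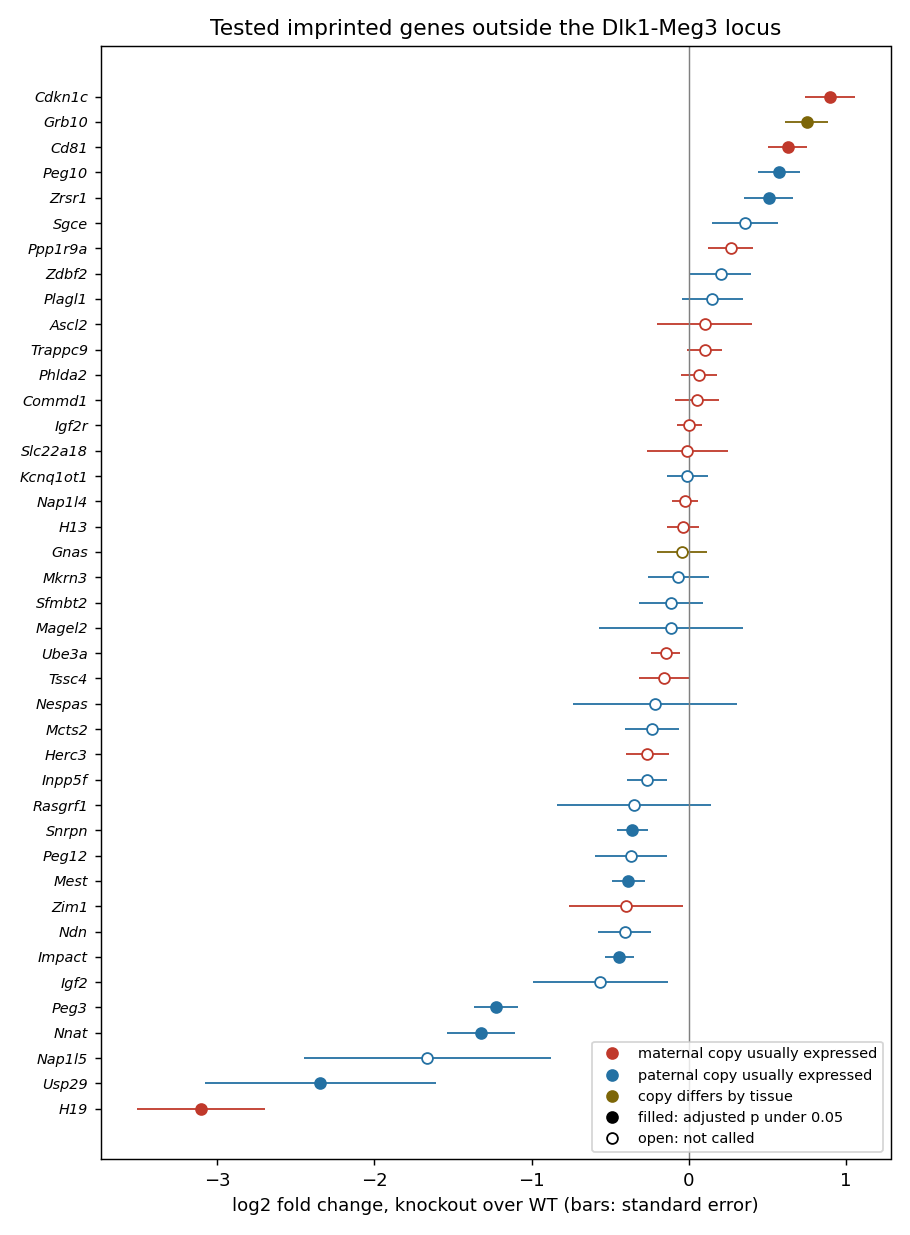
Log2 fold change of the 41 tested imprinted genes, knockout over WT, with bars for the standard error (3 libraries a group) and colours for the copy that is usually expressed. Filled points passed at an adjusted p under 0.05, with H19 at -3.11 at the low end and Cdkn1c at 0.90 at the high end.

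The largest fitted fall of the list was that of H19 (ENSMUSG00000000031.16, chr7:142575529-142578143, minus strand, GRCm38), a maternal non-coding RNA and host of a growth-restraining microRNA. H19 was at 5.49, 5.20 and 8.35 CPM in WT libraries A, B and C and at 0.221, 0.830 and 1.11 CPM in Cdh1-/- cells. Every knockout library was far below every WT library, and knockout A was under the floor. The knockout mean was 11.4% of WT, with a log2 fold change of -3.11 (SE 0.41, adjusted p = 0.000137). Its neighbour Igf2, the paternal gene of insulin-like growth factor 2, was at 2.39, 3.23 and 5.40 CPM in WT and at 1.05, 2.18 and 4.19 CPM in Cdh1-/- cells. The Igf2 groups overlapped, and its log2 fold change of -0.56 did not pass (SE 0.43, adjusted p = 0.446). Reads in exons shared with another gene appear to have been left uncounted, and for Igf2 70.4% of the exon bases are shared, so its level rests on the remainder.

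The Peg3 domain on chromosome 7 held 2 lowered genes of the imprinted list and 3 lowered neighbours that are not on it. Peg3 (ENSMUSG00000002265.17, chr7:6703892-6730421, minus strand), a paternal zinc-finger gene linked to maternal care and growth, stood at 105, 124 and 78.6 CPM in WT A, B and C and at 47.8, 40.3 and 43.6 CPM in Cdh1-/- cells. The groups were well apart, with the knockout at 42.8% of WT and a log2 fold change of -1.22 (SE 0.14, adjusted p = 4.5e-05). Usp29 (chr7:6730583-6967219, plus strand), which starts in the shared window printed above and encodes a deubiquitinase-like protein, was at 1.53, 1.42 and 0.750 CPM in WT and at 0.553, 0 and 0.202 CPM in Cdh1-/- cells. Its log2 fold change was -2.34 (SE 0.74, adjusted p = 0.0486). These levels are near the floor, and 33.4% of the Usp29 exon bases are shared with other genes. The call of Usp29 was lost without WT A (adjusted p = 0.185), WT B (0.179), WT C (0.0755), knockout B (0.138) or knockout C (0.167), with library totals alone (0.0518) and with the medians of chromosomes 1 and 14 removed (0.0594). Usp29 left the test under a filter of at least 1 CPM in 3 libraries and with counts divided by 2. Zim1, the maternal zinc-finger gene beside Peg3, was at 3.92 ± 0.30 CPM in WT and 3.00 ± 1.58 CPM in Cdh1-/- cells (SD, n = 3 each), with overlapping groups (log2 fold change -0.40, adjusted p = 0.54).

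Of the 4 tested neighbours of the Peg3 domain, none on the imprinted list, 3 fell, with larger fitted changes than Peg3. That difference was not tested. Aurkc, an Aurora kinase of germ cells whose body lies 28081 bases from Usp29, was at 4.86, 5.61 and 6.35 CPM in WT and at 0.166, 0.874 and 0.606 CPM in Cdh1-/- cells. It had the largest fall of the domain, a log2 fold change of -3.30 (SE 0.40, adjusted p = 8.1e-05). Zfp264, a zinc-finger gene 10027 bases from Usp29, fell from 16.0, 12.9 and 11.3 CPM to 1.05, 1.92 and 1.92 CPM (log2 fold change -3.02, SE 0.25, adjusted p = 4e-06). Zfp773, 159854 bases away, was at 8.73, 10.1 and 5.50 CPM in WT and 4.42, 2.36 and 1.62 CPM in Cdh1-/- cells. Its log2 fold change was -1.55 (SE 0.33, adjusted p = 0.00598), and 0.0542 without WT B. Zfp954, which lies between Zfp264 and Zfp773, was at 8.35 ± 0.88 CPM in WT and 6.47 ± 0.69 CPM in Cdh1-/- cells (SD, n = 3 each) and did not pass (log2 fold change -0.37, adjusted p = 0.23). It is named although it lies outside the rule for named genes.

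Over all clusters, 557 genes that are not on the list lie within 200 kb of a listed gene, of which 105 were tested. The imprinting of these neighbours was not examined. The set may hold imprinted genes and is not to be read as a background without imprinting. Of the 105, 7 fell and 5 rose, 11.4% in all, beside the 13.3% of all genes. Without WT A, WT B or knockout C, 7 passed. The others among the 6 largest changes were Gm13261 and Itih5 near Sfmbt2 and Ctsh near Rasgrf1. Gm13261, which overlaps Sfmbt2, had 1.58, 1.82 and 1.0 CPM in WT and 0.663, 0.393 and 0.303 CPM in Cdh1-/- cells (log2 fold change -1.70, SE 0.48, adjusted p = 0.0306). Itih5, a gene of the inter-alpha-trypsin inhibitor family, had 4.14, 4.65 and 2.90 CPM against 1.22, 0.874 and 2.47 CPM (log2 fold change -1.36, SE 0.38, adjusted p = 0.0275). Ctsh, a lysosomal protease, had 3.65, 4.14 and 4.10 CPM against 8.24, 5.94 and 10.8 CPM (log2 fold change 1.07, SE 0.24, adjusted p = 0.00804). In each of these genes the groups did not overlap. Their calls were each lost in some fits that left out a library. Gm13261 was lost without WT A (adjusted p = 0.116), WT B (0.146), knockout B (0.12) or knockout C (0.135), Itih5 without WT A (0.0981), WT B (0.132) or knockout B (0.119), and Ctsh without knockout C (0.0558). The imprinted genes beside them, Sfmbt2 (log2 fold change -0.11, adjusted p = 0.784) and Rasgrf1 (-0.35, adjusted p = 0.711), did not pass.

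**Figure D2:**
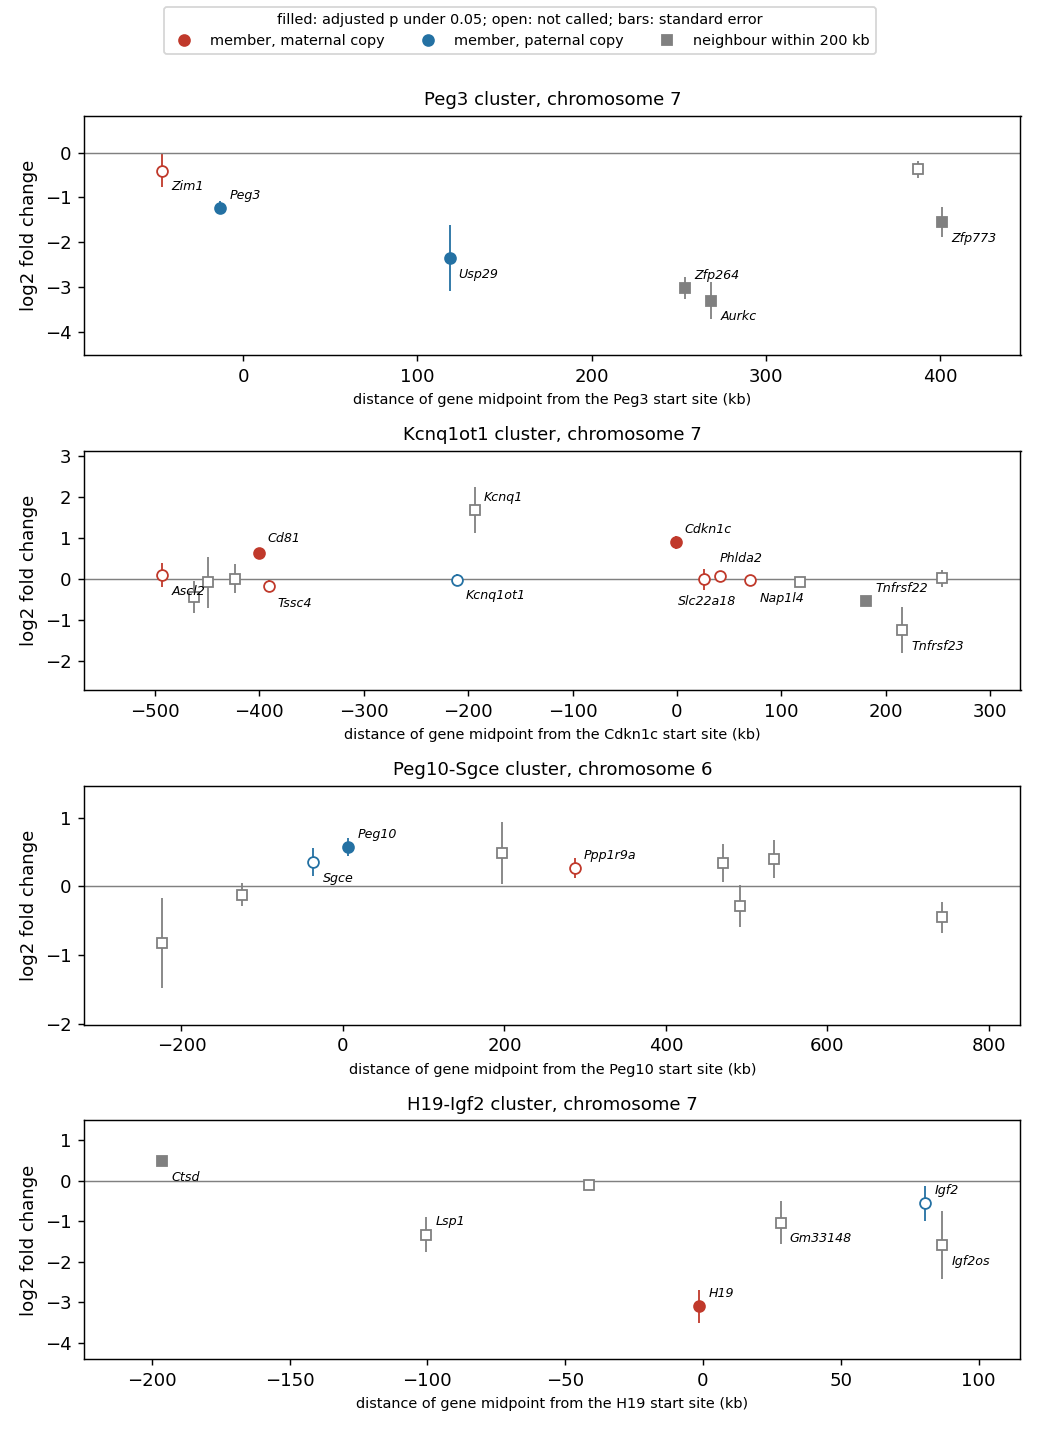
Log2 fold change, knockout over WT, against the distance of each gene's midpoint from a start site in kb, for the clusters Peg3, Kcnq1ot1, Peg10-Sgce and H19-Igf2. Circles are genes of the imprinted list, and squares are tested genes within 200 kb that are not on it. Bars are standard errors, and filled points passed at an adjusted p under 0.05. In the Peg3 panel Aurkc (-3.30) and Zfp264 (-3.02) lie below Usp29 (-2.34) and Peg3 (-1.22). In the Kcnq1ot1 panel the listed genes Cdkn1c (0.90) and Cd81 (0.63) are filled above 0. The neighbour Kcnq1 (1.68) is higher but open, and Tnfrsf22 (-0.52) is filled below 0.

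Other lowered genes were paternal genes of separate loci. Nnat (ENSMUSG00000067786.16, chr2:157560078-157562522, plus strand), which encodes the small membrane protein neuronatin from within an intron of another gene, was at 8.51, 9.498 and 8.45 CPM in WT A, B and C and at 3.76, 4.02 and 2.78 CPM in Cdh1-/- cells. The knockout libraries lay at 39.9% of WT on average, with a log2 fold change of -1.32 (SE 0.22, adjusted p = 0.000829). Impact (ENSMUSG00000024423.6, chr18:12971923-12992950, plus strand), an inhibitor of the amino acid sensor kinase GCN2, was at 184, 163 and 153 CPM in WT and 131, 119 and 119 CPM in Cdh1-/- cells. The Impact groups were apart by a smaller step, 73.7% of WT (log2 fold change -0.44, SE 0.09, adjusted p = 0.00484).

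Mest (ENSMUSG00000051855.15, chr6:30733506-30748465, plus strand), which encodes a hydrolase-like protein tied to fetal growth, was at 60.0, 68.6 and 58.6 CPM in WT and 42.4, 49.8 and 51.1 CPM in Cdh1-/- cells. Its log2 fold change was -0.38 (SE 0.11, adjusted p = 0.0267), with groups that did not overlap and 32.9% of exon bases shared with other genes. The Mest call was kept only without knockout C, and was lost without WT A (adjusted p = 0.0681), WT B (0.136), WT C (0.0502), knockout A (0.0602) or knockout B (0.0695).

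Snrpn (ENSMUSG00000102252.5, chr7:59982495-60140219, minus strand) lies in the region of the Prader-Willi and Angelman syndromes and encodes a splicing protein. It was at 47.1, 47.1 and 49.97 CPM in WT and at 36.7, 35.9 and 39.9 CPM in Cdh1-/- cells, a narrow and separated difference (log2 fold change -0.36, SE 0.10, adjusted p = 0.0264). Of the Snrpn exon bases 21.9% are shared with other genes. The Snrpn call was lost without WT A (adjusted p = 0.0802), WT B (0.0685), WT C (0.107) or knockout B (0.115), and when every gene with at least 1 count was tested (0.0613). The 5 other genes of that region did not pass. Ndn, encoding the growth suppressor necdin, was at 12.3 ± 1.82 CPM in WT and 9.29 ± 0.61 in the knockout (SD, n = 3 each; log2 fold change -0.41, adjusted p = 0.134). Peg12 was at 5.28 ± 0.64 and 4.08 ± 0.47 CPM (-0.37, adjusted p = 0.34). Magel2 (0.9997 ± 0.20 and 0.925 ± 0.42 CPM), Mkrn3 (10.1 ± 2.19 and 9.63 ± 1.51 CPM) and the maternal ubiquitin ligase gene Ube3a (103 ± 7.32 and 93.4 ± 6.44 CPM) overlapped between genotypes, with log2 fold changes of -0.11, -0.07 and -0.15.

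Among tested genes that did not pass, Nap1l5 alone had a log2 fold change beyond 1 in size. This paternal gene of a nucleosome assembly protein family was at 0.990, 0.909 and 0.400 CPM in WT and at 0.553, 0 and 0.202 CPM in Cdh1-/- cells. Its groups overlapped near the floor (log2 fold change -1.66, SE 0.79, adjusted p = 0.192). Without knockout A it passed, at -2.93 and an adjusted p of 0.0406. Herc3, which hosts it, was at 31.7 ± 5.23 CPM in WT and 26.5 ± 3.11 CPM in Cdh1-/- cells (SD, n = 3 each; log2 fold change -0.26, adjusted p = 0.247).

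Of the 5 genes that rose, Cdkn1c changed most. Cdkn1c (ENSMUSG00000037664.13, chr7:143458339-143461050, minus strand), a maternal gene for the cyclin-dependent kinase inhibitor p57, was at 13.6, 13.2 and 14.6 CPM in WT A, B and C and at 19.8, 26.4 and 30.7 CPM in Cdh1-/- cells. WT libraries lay close together and every knockout library was above them (log2 fold change 0.90, SE 0.16, adjusted p = 0.00139). For Cdkn1c 30.3% of the exon bases are shared with another gene. Cd81 (ENSMUSG00000037706.17, chr7:143052739-143067934, plus strand), a tetraspanin of the cell surface in the same cluster, was at 138, 129 and 162 CPM in WT and 226, 181 and 257 CPM in Cdh1-/- cells. Its groups did not overlap (log2 fold change 0.63, SE 0.12, adjusted p = 0.00276).

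The 6 other genes of the Kcnq1ot1 cluster stayed within 0.2 log2 units and did not pass. Kcnq1ot1, the long paternal RNA that silences the cluster on its own chromosome, was at 50.4 ± 10.5 CPM in WT and 50.03 ± 2.53 CPM in Cdh1-/- cells (SD, n = 3 each; log2 fold change -0.01, adjusted p = 0.977). Phlda2, a maternal restrainer of placental growth, was at 36.3 ± 3.52 and 38.0 ± 3.39 CPM (0.07, adjusted p = 0.776). Nap1l4 (181 ± 3.11 and 179 ± 10.4 CPM), Tssc4 (24.4 ± 2.31 and 21.8 ± 5.13 CPM), Slc22a18 (5.43 ± 1.02 and 5.42 ± 1.70 CPM) and the trophoblast factor gene Ascl2 (4.46 ± 1.31 and 4.78 ± 1.68 CPM) likewise overlapped. Kcnq1, the potassium channel gene that Kcnq1ot1 overlaps, is not on the list and was named after its values were seen. It was at 0.180, 0.707 and 0.550 CPM in WT and 2.49, 1.18 and 0.959 CPM in Cdh1-/- cells, separated but near the floor (log2 fold change 1.68, SE 0.56, adjusted p = 0.0611).

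Grb10 (ENSMUSG00000020176.17, chr11:11930508-12037401, minus strand), an adaptor that restrains insulin and growth factor receptors, was at 94.1 CPM per kb of exon in WT, with exon bases shared with other genes counted in the length. It was at 410, 463 and 576 CPM in WT and 641, 860 and 938 CPM in Cdh1-/- cells. Every knockout library exceeded every WT library (log2 fold change 0.75, SE 0.14, adjusted p = 0.00195). On the same scale of CPM per kb in WT, Cd81 was at 93.4, Nap1l4 at 75.8, Phlda2 at 48.0, Impact at 44.4 and Igf2r at 34.4. Without the shared bases, Cd81 was at 95.2 and Grb10 at 94.1, so their order depends on the length used.

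Peg10 (ENSMUSG00000092035.8, chr6:4747306-4760517, plus strand), a paternal gene derived from a retrotransposon and required for the placenta, was at 140, 152 and 152 CPM in WT and 173, 209 and 279 CPM in Cdh1-/- cells. All knockout libraries were higher, over a wide range (log2 fold change 0.58, SE 0.13, adjusted p = 0.00997), and the call was lost without WT A (adjusted p = 0.0628) or WT B (0.0508). Sgce, which starts beside Peg10 on the other strand and encodes a sarcoglycan, was at 8.12 ± 2.39 and 10.4 ± 0.59 CPM (SD, n = 3 each; 0.36, adjusted p = 0.299). Ppp1r9a, encoding the actin-binding neurabin, was at 83.5 ± 14.1 and 100 ± 20.5 CPM (log2 fold change 0.27, adjusted p = 0.261). Ppp1r9a passed without knockout A (0.42, adjusted p = 0.02) and when every gene with at least 1 count was tested (0.30, adjusted p = 0.0495). Asb4, in the same cluster, was not tested, at 0.900, 0.606 and 0 CPM in WT and 0.166, 0.087 and 0.101 CPM in Cdh1-/- cells, where it lay under the floor in every library. Without WT C it entered the test and passed, at a log2 fold change of -2.63 (adjusted p = 0.046).

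Zrsr1 (ENSMUSG00000044068.7, chr11:22972005-22976496, plus strand), a paternal retrogene for a splicing factor inside an intron of Commd1, was at 12.1, 10.4 and 13.6 CPM in WT and 15.03, 17.2 and 19.1 CPM in Cdh1-/- cells. The groups did not overlap, and the test passed narrowly (log2 fold change 0.51, SE 0.16, adjusted p = 0.0434). The Zrsr1 call was lost without WT A (adjusted p = 0.124), WT B (0.169), knockout B (0.0991) or knockout C (0.162), with library totals (0.0584) or upper quartile scaling (0.0617), and with the medians of chromosomes 1 and 14 removed (0.0533). Its host Commd1, which encodes a protein of endosomal sorting, was at 16.3 ± 2.01 and 16.9 ± 0.79 CPM (SD, n = 3 each; 0.05, adjusted p = 0.859).

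**Figure D3:**
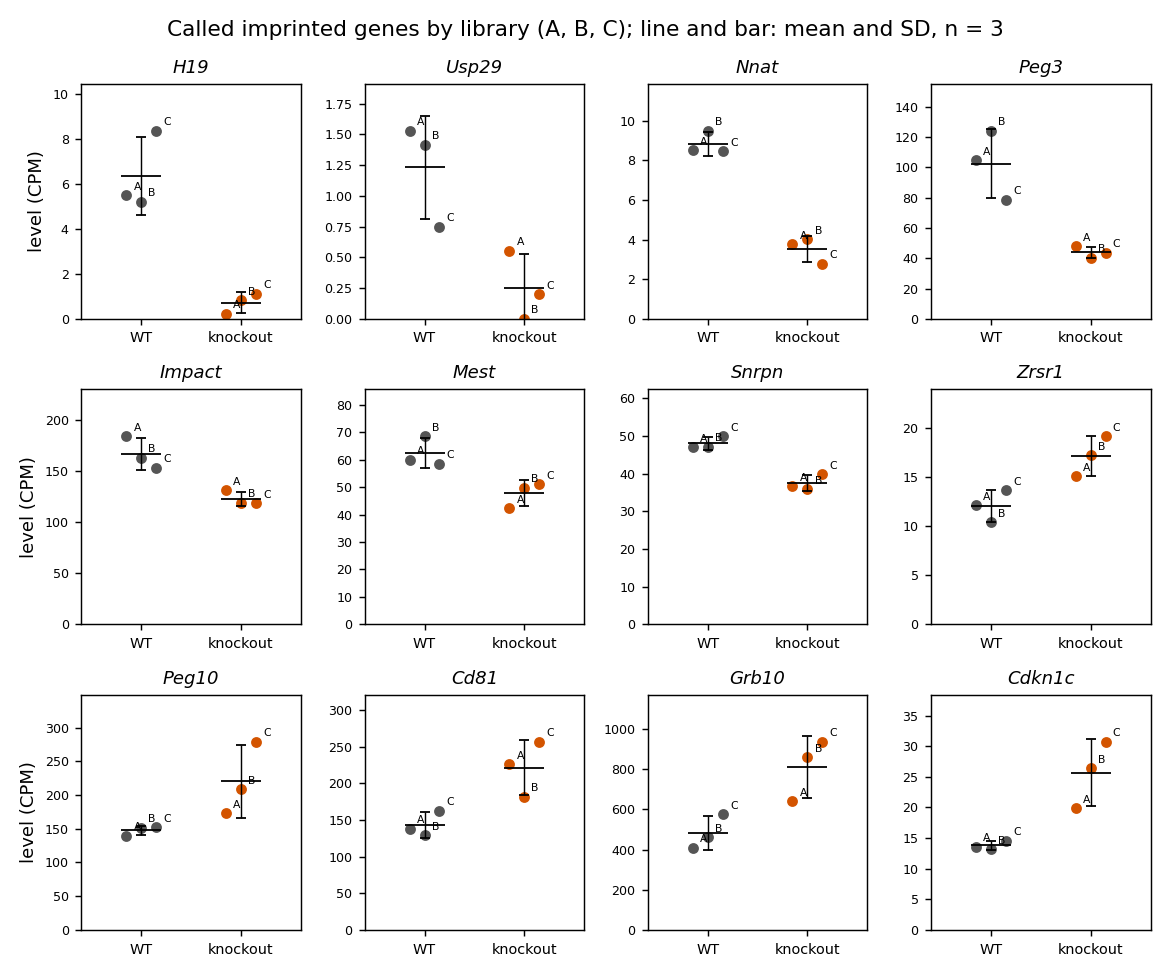
Level in CPM of the 12 imprinted genes that passed, in each of the libraries A, B and C of WT and knockout, with a horizontal mark for the mean and a bar for the SD (n = 3). In each panel the WT and knockout points do not overlap; H19 falls from between 5.20 and 8.35 CPM to between 0.221 and 1.11 CPM, and Grb10 rises from between 410 and 576 CPM to between 641 and 938 CPM.

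Genes of the remaining loci did not pass. Igf2r, the maternal receptor that clears IGF2, was at 306 ± 7.999 CPM in WT and 306 ± 15.3 CPM in Cdh1-/- cells (SD, n = 3 each; log2 fold change 0.004, SE 0.08, adjusted p = 0.985). Airn, the paternal RNA that silences Igf2r in other tissues, was not tested, at a mean of 0.337 CPM in WT and 0.297 CPM in Cdh1-/- cells. Kcnk9 was not tested either and had counts in a single knockout library. Zdbf2 on chromosome 1 was at 218, 188 and 214 CPM in WT and at 140, 295 and 278 CPM in Cdh1-/- cells, so that knockout A lay below WT and the others above it (log2 fold change 0.20, SE 0.19, adjusted p = 0.555). Without knockout A, Zdbf2 passed at 0.47 (adjusted p = 0.000908), and with the chromosome medians removed it was at 0.51 (adjusted p = 0.113).

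The other genes had log2 fold changes between -0.26 and 0.15 with adjusted p-values of 0.209 or more. They were Inpp5f (-0.26), a phosphatase gene whose libraries separated, the retrogene Mcts2 (-0.24) and its host H13 (-0.04), Nespas (-0.21) and Gnas (-0.04), the gene of a stimulatory G protein subunit, Trappc9 (0.10) and Plagl1 (0.15), a zinc-finger regulator of growth. Gnas, Nespas and Ube3a share 23.4%, 38.5% and 32.4% of their exon bases with other genes, so transcripts of the Gnas locus that differ in imprint were not resolved. In all, 22 of the 29 tested genes that did not pass lay within 0.3 log2 units of 0. Among the 33 tested genes with under 10% of shared exon bases, 4 fell and 4 rose, beside 5.71% and 7.6% of all genes.

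Within clusters the ratio of a maternal to a paternal gene was compared in 7 pairs with all libraries above the floor, by a two-sided exact permutation test whose smallest possible p is 0.1. The log2 ratio of Cdkn1c to Kcnq1ot1 was -1.84, -2.22 and -1.49 in WT A, B and C and -1.30, -1.002 and -0.66 in the knockout, a rise of 0.87 with separated groups (exact p = 0.1, adjusted p = 0.35). The log2 ratio of Commd1 to Zrsr1 was 0.28, 0.59 and 0.45 in WT and 0.09, 0.02 and -0.14 in the knockout, separated in the other direction (difference -0.45, exact p = 0.1, adjusted p = 0.35). The pairs Zim1 with Peg3, Ppp1r9a with Peg10, Ppp1r9a with Sgce, Ube3a with Snrpn and H13 with Mcts2 overlapped. With 3 libraries a group this test cannot reach an adjusted p under 0.05, so no conclusion is drawn from it. Cdkn1c and Zrsr1 had already passed as single genes, while Kcnq1ot1 and Commd1 had not. The separated ratios are therefore not independent of those results.

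A list for imprint maintenance held 30 genes, all tested. It is broad and takes in Tet1, Tet2, Tet3 and Rlim, which need not set or keep imprints. Of the 30, 7 fell and 2 rose, beside 5.71% lower and 7.6% higher over all genes. Their median log2 fold change was -0.06. Without WT A or knockout B, 5 passed in all. This list and that of insulin-like growth factor genes below were chosen with earlier results of these data known. Zfp57, whose protein is known to bind the hexamer TGCCGC where it is methylated and to recruit repressors to imprinted regions, was at 237, 215 and 251 CPM in WT and at 425, 715 and 818 CPM in Cdh1-/- cells. It was higher in all 3 knockout libraries (log2 fold change 1.48, SE 0.17, adjusted p = 5.5e-05). Dppa3, which shields methylation in the early embryo, was at 8.10, 11.01 and 7.85 CPM in WT and at 4.42, 2.27 and 3.38 CPM in Cdh1-/- cells (log2 fold change -1.43, SE 0.26, adjusted p = 0.00178). The de novo DNA methyltransferase gene Dnmt3a was at 215, 201 and 222 CPM in WT and at 121, 149 and 158 CPM in Cdh1-/- cells (log2 fold change -0.57, SE 0.10, adjusted p = 0.00147).

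Ctcfl, a germ cell relative of the insulator protein CTCF, was at 2.36 ± 0.68 CPM in WT and 0.846 ± 0.30 CPM in Cdh1-/- cells (SD, n = 3 each; log2 fold change -1.49, SE 0.41, adjusted p = 0.0251). Tet2, a methylcytosine dioxygenase, was at 265 ± 14.4 and 394 ± 109 CPM (log2 fold change 0.57, SE 0.15, adjusted p = 0.0216), with knockout A at 271 CPM inside the WT range. Neither call was kept in every fit that left out a library. Ctcfl was lost without WT A (adjusted p = 0.139), WT C (0.0741), knockout B (0.111) or knockout C (0.07), and Tet2 without WT A (0.0796), WT B (0.0783), WT C (0.0881), knockout B (0.123) or knockout C (0.0956). The remaining called genes were Dnmt3b, Dnmt3l, the replication timing factor Rif1 and the ubiquitin ligase Rlim, all lower. The maintenance methyltransferase Dnmt1 (436 ± 4.18 CPM in WT, 419 ± 4.91 CPM in Cdh1-/- cells), its partner Uhrf1 and the corepressor Trim28 did not pass, with log2 fold changes of -0.06, 0.04 and -0.12.

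The axis of insulin-like growth factors, on which Igf2, Igf2r and Grb10 act, was followed in 20 further genes, of which 17 were tested. Of these 4 fell and 0 rose, beside 5.71% lower and 7.6% higher over all genes. The median log2 fold change was -0.26, and -0.01 over all genes. The binding protein gene Igfbp5 was at 8.37, 5.66 and 4.90 CPM in WT and 1.88, 2.18 and 1.31 CPM in Cdh1-/- cells (log2 fold change -1.81, SE 0.30, adjusted p = 0.000845). Igfbp5 lies on chromosome 1, and with the chromosome medians removed its log2 fold change was -1.5 (adjusted p = 0.00457). Igf2bp3, encoding an RNA-binding protein of Igf2 mRNA, was at 82.8 ± 2.63 and 55.5 ± 3.63 CPM (SD, n = 3 each; -0.58, SE 0.09, adjusted p = 0.000636). Stc2, an inhibitor of the protease that frees IGFs, was at 56.3 ± 10.8 and 36.0 ± 5.74 CPM (-0.64, SE 0.15, adjusted p = 0.00898), and its call was lost without WT A (0.0602) or WT C (0.0636).

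Igfbp2, the fourth gene of this axis that fell, also lies on chromosome 1. It was at 600 ± 59.9 and 456 ± 62.0 CPM (SD, n = 3 each; log2 fold change -0.40, SE 0.10, adjusted p = 0.0203). With the chromosome medians removed its log2 fold change was -0.09 (adjusted p = 0.686), and its call was lost without WT A (0.132), WT B (0.0508), knockout B (0.116) or knockout C (0.104). The receptor genes Igf1r (-0.10, adjusted p = 0.598) and Insr (0.24, adjusted p = 0.114) did not pass.

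**Figure D4:**
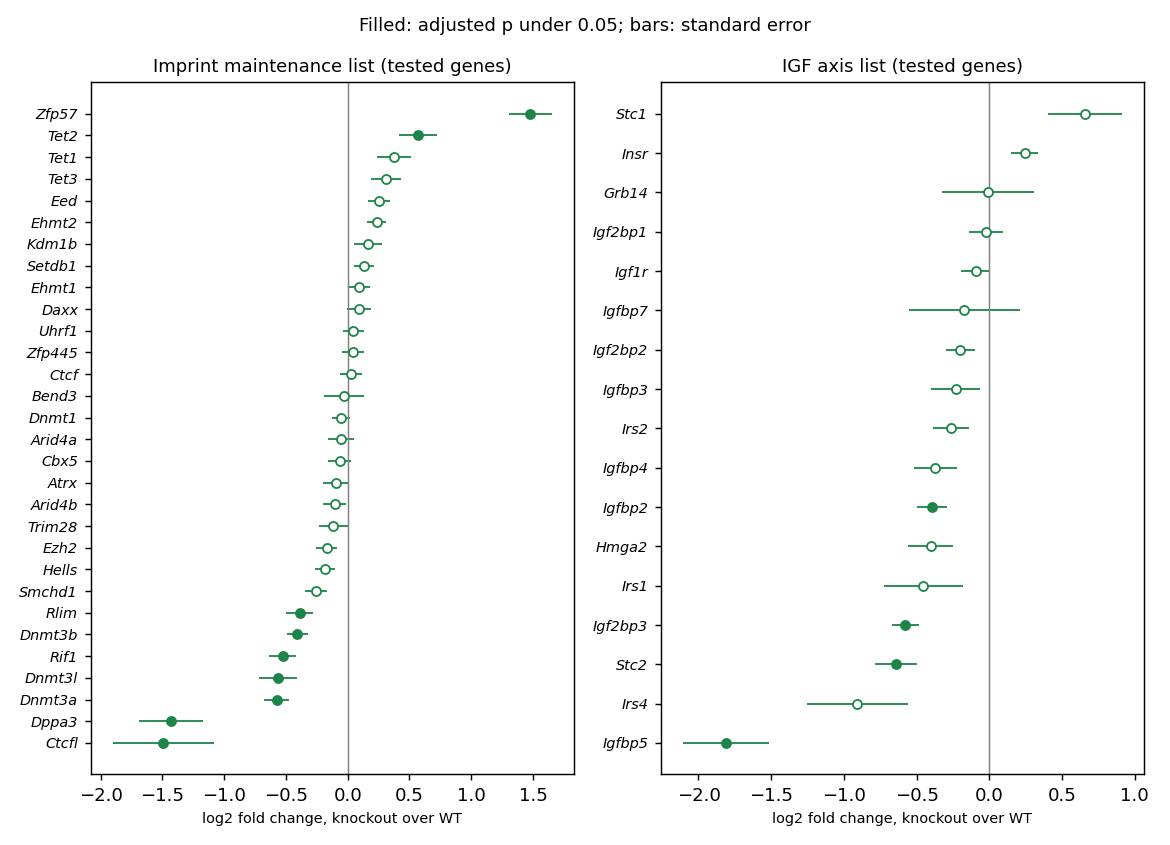
Log2 fold change, knockout over WT, of the tested genes of the imprint maintenance list (left) and of the insulin-like growth factor axis (right). Bars show the standard error (3 libraries a group), and filled points passed at an adjusted p under 0.05. Zfp57 stands apart on the right of its panel at 1.48, and Igfbp5 is lowest in the other at -1.81.

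Markers of cell types that such cultures can hold were read from the same fit. Over all tested genes 7.6% were higher and 5.71% lower. The 10 stem cell markers summed to between 5107 and 5617 CPM in WT libraries and between 5790 and 7241 CPM in Cdh1-/- cells, with 2 of 10 higher. The 9 tested of 10 endoderm markers were all higher, and their sum was between 174 and 259 CPM in WT and between 485 and 941 CPM in Cdh1-/- cells, while Afp stayed at or under the floor. Of the 13 fibroblast markers 9 were tested, of which 2 were higher and 1 was lower, with sums of 60.7 to 72.8 CPM in WT and 72.5 to 95.2 CPM in Cdh1-/- cells. Of the 10 trophoblast markers 7 were tested, of which 1 was higher and 1 lower, with sums of 28.5 to 38.9 CPM in WT and 34.2 to 44.4 CPM in Cdh1-/- cells, and Prl2c2 was at 0 in every library. The part of these cells in the levels of the imprinted genes was not tested.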

How the data were processed

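Total RNA from 3 WT and 3 Cdh1-/- libraries was made into directional libraries, per the labels' protocols. The authors deposited whole-number counts per gene, not normalized, with gene lengths in bases. Per the submitters' processing notes, cutadapt 2.10, STAR 2.7.5b, featureCounts 2.0.1 and GRCm38 were used. The strand setting is not given in the sources used here. Of 55401 identifiers, 55141 received a symbol and 54349 equalled GENCODE M21 in identifier and version. Among genes fully under exons of an expressed gene, 165 on the same strand and 129 on the other, 0 had any count, which is the pattern left when strand is ignored and reads touching several genes are dropped. Low counts from 1 to 10 were even in 78.1% to 83.1% of cases, as if both mates of a read pair had been counted. This was not tested. Low counts may therefore stand for fewer RNA fragments, and the floor was set at 6 counts for this reason.

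Counts were fitted in R 4.3.3 with edgeR 4.0.16 (TMM scaling, filterByExpr with a smallest count of 10 and total of 15, quasi-likelihood test with genotype as its term), which tested 17325 of 32417 genes with a count. P-values were adjusted by Benjamini-Hochberg over all tested genes and called under 0.05. The common biological coefficient of variation was 0.137. Levels are TMM-scaled CPM, with depths of 18020719 to 23381942 counts; floors cover counting error only. In simulated data with 17325 genes, 97 genes were changed 2-fold and 96 were changed 4-fold. Of these, 55.7% and 92.7% were recovered, with 5.3% false among those called. Far fewer genes were changed there than were called in the real data, so recovery here may differ.

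The imprinted genes and the gene lists were chosen with earlier results of these data known. The rule for names took every imprinted gene, with values per library for those called or changed by at least 1 log2 unit, up to 5 called genes of each list and up to 6 called neighbours with the largest changes. Alternatives were DESeq2 1.42.0, limma-voom 3.58.1, other scalings and filters, counts divided by 2, removal of each library's medians of chromosomes 1 and 14, a replicate block and leaving out each library. The ratios without single libraries were added after seeing the data.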

Additional observations from a re-analysis of the deposited data

How the results depend on the processing

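The 12 imprinted genes called became 10 to 12 under DESeq2, limma-voom, other scalings and filters, counts divided by 2, the replicate block and removal of chromosome medians, and 8 at an adjusted p under 0.01. Leaving out each library gave 7 to 14 called imprinted genes (12 with all), some of them not among these 12. Leaving out each library also gave 5 to 12 genes of the imprint maintenance list (9 with all). It gave 7 to 16 neighbouring genes (12 with all) and 1374 to 2784 of all genes (2307 with all, 1470 without WT B). The low ends came without WT A. For the imprinted genes and the neighbours they also came without WT B. For the neighbours they also came without knockout C, and for the imprint maintenance list without knockout B. The high ends came without knockout A. At an adjusted p under 0.01 these other counts were 5, 6 and 1242. The cause was not tested. No called gene named in the text changed direction. Among the 44 imprinted genes, 15 changed sign under an alternative, none of which had passed. Without single libraries their log2 fold changes ranged from -0.619 to 0.044 for Rasgrf1, -0.635 to 0.074 for Nespas, -0.267 to 0.024 for Tssc4, -0.541 to 0.073 for Magel2, -0.282 to 0.127 for Sfmbt2, -0.164 to 0.135 for Mkrn3, -0.14 to 0.058 for Gnas, -0.071 to 0.015 for H13, -0.055 to 0.022 for Nap1l4, -0.13 to 0.16 for Kcnq1ot1, -0.256 to 0.201 for Slc22a18, -0.037 to 0.036 for Igf2r, -0.016 to 0.165 for Commd1, -0.197 to 0.325 for Ascl2 and -0.009 to 0.322 for Plagl1. With every gene of at least 1 count tested, Nap1l4 was at 0.007, Kcnq1ot1 at 0.019 and Slc22a18 at 0.02. Under limma-voom Nespas was at 0.019 and Kcnq1ot1 at 0.012. Igf2r was at -0.008 with a filter of 1 CPM, -0.005 with counts divided by 2, -0.03 with library totals and -0.032 with upper quartile scaling. Deviations of same-letter libraries correlated at 0.145 for A, -0.0259 for B and 0.233 for C. WT B correlated best with knockout A, at 0.119. The other pairs of unlike letters lay between -0.245 and 0.0468. Whether the letters pair libraries across genotypes cannot be told from these values. With the replicate block 12 imprinted genes and 2686 of all genes were called, and Kcnq1ot1 was at 0.007. Depth limits Usp29, Nap1l5, Airn and Asb4, whose levels lay near the floor, and H19 in the knockout.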
